A study of Mus musculus with 2 samples.

Results

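Stanniocalcin 1 (Stc1) and stanniocalcin 2 (Stc2) are the paralogous stanniocalcin genes of the mouse, and they were taken by symbol from the deposited count table, where they are 2 of 44792 gene rows. The table holds RNA sequencing read counts for 2 libraries of OCCM-30 cells, an immortalized, cementoblast-like mouse line. Cementoblasts form cementum, the mineral layer of the tooth root. The compressed library is from cells under compressive force, of a size and duration that the labels do not state, and the control library is from cells labelled control. There is 1 library per group, of 1 cell line, so no difference below has a replicate check, and each value describes these libraries only. The genes were chosen by their ratio between these same libraries, so those ratios are descriptions and no p-value was computed.

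Stanniocalcins are secreted, disulfide-linked glycoproteins. The family was first known from fish, where the hormone lowers blood calcium, whereas the mammalian proteins act mostly on nearby cells. Both mammalian proteins inhibit the pappalysins, proteases that release insulin-like growth factors from their binding proteins. Stc1 has been linked to phosphate uptake by bone-forming cells and is a target of hypoxia-inducible factor (HIF). Stc2 has been described as a target of HIF and of the stress factor ATF4, and as a brake on calcium entry that follows emptying of intracellular stores.

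The series asked how the transcriptome of compressed cementoblasts differs from that of control cells, and for the stanniocalcins the answer was unequal between the paralogs. Stc1 had 881 counts in the compressed library and 57 counts in the control library. On library sizes scaled by the trimmed mean of M-values (TMM), Stc1 stood at 36.3 counts per 1000000 counts (CPM) under compression, with an exact 95% Poisson interval of 33.9 to 38.8. In the control library it stood at 2.27 CPM, with an interval of 1.72 to 2.95. The intervals of the libraries did not overlap. The compressed library thus had 15.8 times the control level, with an exact 95% counting interval of 12.2 to 21.2, and the log2 ratio was 3.98. These intervals cover counting error only, because sequenced reads are not independent molecules and the spread between cultures was not measured. In RNA from whole cultures, more Stc1 RNA per cell and more cells with Stc1 RNA cannot be told apart.

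Stc2 had nearly the same count in both libraries, 208 under compression and 199 in the control. It stood at 8.56 CPM in the compressed library, with an interval of 7.44 to 9.81. In the control library it stood at 7.94 CPM, with an interval of 6.88 to 9.12, and the intervals overlapped. The ratio was 1.08, its counting interval of 0.884 to 1.32 included 1, and the log2 ratio was 0.11. A difference in Stc2 was not detectable at this depth. Counting error alone allowed a ratio of up to 1.32. With an assumed coefficient of variation of 0.2 between cultures the Stc2 interval widened to 0.598 to 1.94, and that of Stc1 to 8.61 to 29.8.

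**Figure D1:**
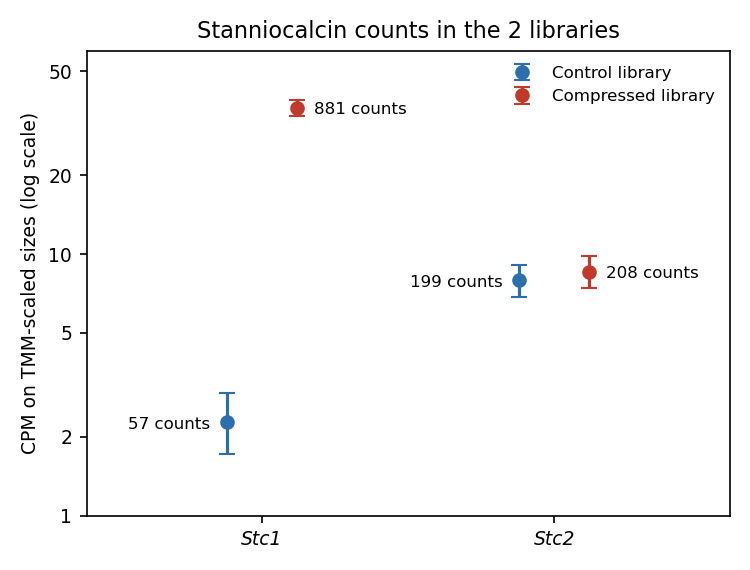
CPM of Stc1 and Stc2 (vertical axis, log scale, on TMM-scaled library sizes) in the control library (blue) and the compressed library (red), with the read count beside each point. Bars are exact 95% Poisson intervals for counting error, with 1 library per group. Stc1 lies at 2.27 CPM (control) and 36.3 CPM (compressed), while the Stc2 intervals overlap.

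Stc1 lies on mouse chromosome 14 at 69029289 to 69041401 and Stc2 on chromosome 11 at 31359441 to 31370061, counted from 1 on GRCm38.p6, the assembly of the RefSeq gene table. RefSeq gives 1 transcript for each. The Stc1 span shares 1202 bases with that of a long noncoding RNA, Gm41192, which has no row of counts under that symbol. Whether the counting used strand is not stated in the labels, so reads from that shared stretch cannot be assigned, and the part they have in the Stc1 count was not tested. No RefSeq gene overlaps the span of Stc2. Among protein-coding genes near Stc1, Adamdec1, Adam28 and Nkx2-6 were listed at 0 in both libraries. Around Stc2, Chac2 (183 counts against 168) had a ratio of 1.12 with an interval that included 1. Asb3, 257 kb away, had 97 counts against 51 and a ratio of 1.95 (1.38 to 2.81), just under the fold limit. On the other side Bod1 had a ratio of 0.794 (0.725 to 0.870) and Cpeb4 of 0.978 (0.879 to 1.09).

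Only the Stc2 promoter is shown, because no promoter window was available for Stc1, so the paralogs cannot be compared here. Stc2 is described as a HIF and ATF4 target, and its ratio was near 1. The 250 bases before the RefSeq start, on the minus strand at chr11:31370062-31370311 of GRCm38.p6, read 5′ to 3′ as follows, with the HIF core GCGTG and the CCAAT box, on either strand, in capitals.
Stc2: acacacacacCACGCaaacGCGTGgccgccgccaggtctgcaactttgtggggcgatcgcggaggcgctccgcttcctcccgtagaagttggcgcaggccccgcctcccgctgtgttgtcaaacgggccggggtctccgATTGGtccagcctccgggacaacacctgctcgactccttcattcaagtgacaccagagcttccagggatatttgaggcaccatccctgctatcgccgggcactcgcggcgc
The window held 2 GCGTG matches, 1 on each strand, which begin 231 and 240 bases before the start. GCGTG was present on either strand in 28.2% of 32851 RefSeq promoter windows of the same length. It held no ACGTG, the other form of the HIF core, which was present in 16.6% of windows. One CCAAT match lay on the opposite strand, 111 bases before the start, and CCAAT was present in 33.8% of windows. TGATGNAA, used here for the composite ATF4 element, had no match and was present in 3.45% of windows. These are matches of letters in this window and not sites. The window was rich in G and C, at 64.4% against a median of 52.4% over all windows.

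The mix of stanniocalcin reads was reversed between the libraries. Stc1 reads made up 22.3% of the 256 stanniocalcin counts of the control library, with an exact (Clopper-Pearson) 95% interval of 17.3% to 27.9%. They made up 80.9% of the 1089 stanniocalcin counts of the compressed library, with an interval of 78.4% to 83.2%. There were thus 0.286 Stc1 counts for each Stc2 count in the control and 4.24 for each in the compressed library. The quotient of the Stc1 and Stc2 ratios, taken from the counts alone so that library scaling cancels, was 14.8, with a conditional counting interval of 10.5 to 20.9. Transcript lengths were not used here, so the mix is one of reads, and the molar levels of Stc1 and Stc2 within a library were not compared.

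Against the whole table, Stc1 lay at the upper end and Stc2 in the middle. Calls were made for genes that reached 1 CPM in either library. A higher call needed a ratio of 2 or more, a lower call a ratio of 0.5 or less, and both a counting interval without 1. Of 14001 genes that reached 1 CPM, 3.06% were called higher (429 genes) and 0.929% lower (130 genes). With a loess fit of the ratio on abundance these counts were 355 and 183, so the higher genes made up 66.0% of calls instead of 76.7%. Stc1 was among the higher genes, while Stc2 was in neither class. By ratio Stc1 ranked 6 of 14001. The 5 genes above it were Slc2a4, Nos2, Smtnl2, Myh7b and Ppp1r3c, listed after their values were seen. Their control counts ran from 0 for Slc2a4 to 31 for Smtnl2, against 57 for Stc1. Among the 7999 genes with a mean CPM at or above the Stc1 mean of 19.3 CPM, no other gene had a ratio as large. That cut was set at the mean of Stc1 itself, to which the compressed library gave most. Smtnl2, with a larger ratio, fell below it, so this place depends on the cut. The next among the 7999 genes was Ccng2, an atypical cyclin, with a ratio of 9.65 (8.59 to 10.9). The ratio of Stc2 was higher than that of 65.2% of the 14001 genes, whose median log2 ratio was -0.01.

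**Figure D2:**
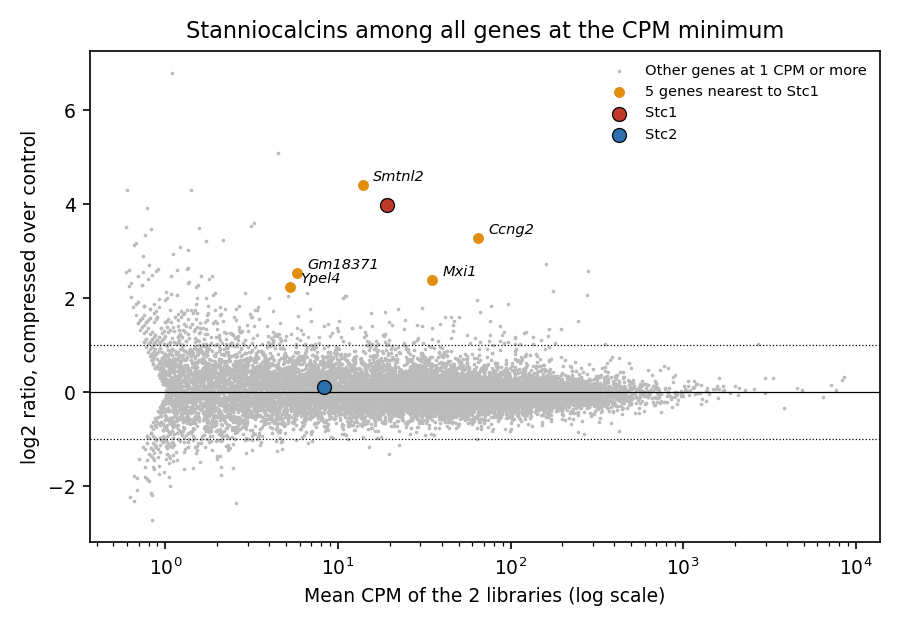
Mean CPM of the libraries (horizontal axis, log scale) against the log2 ratio of compressed over control (vertical axis) for each of the 14001 genes that reached 1 CPM in either library. Dotted lines mark the fold limits of 2 and 0.5. Stc1 (red) sits at a log2 ratio of 3.98, close to Smtnl2, and Stc2 (blue) sits at 0.11 within the main cloud. Orange points are the 5 genes nearest in ratio to Stc1 among genes of similar abundance.

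Genes most like each stanniocalcin were found as those with the smallest difference in log2 ratio among genes whose mean CPM lay within a factor of 4. With 2 libraries this likeness rests on a single ratio per gene. Stc1 had few close matches among 7442 candidates. Smtnl2, a smoothelin-like gene, was nearest, 0.42 away on the log2 scale, with 646 counts against 31. Ccng2 followed at 0.71. The other 3 were more than 1 log2 unit away, namely the noncoding Gm18371 (239 counts against 42), the Myc antagonist Mxi1 (1425 against 281) and Ypel4 (211 against 46). Stc2 instead had many near neighbours among 6021 candidates. The 5 nearest were the cytokine Lif (231 against 221), Hrsp12 (371 against 355), Slc45a3 (393 against 376), C230029M16 (69 against 66) and Gm12918 (230 against 220), and each had a ratio of 1.08.

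HIF targets, the group in which both stanniocalcins are usually placed, had ratios above 1 throughout. Of 23 listed genes, 22 reached 1 CPM, and 13 of these were called higher and 0 lower, where 3.06% and 0.929% of all genes were. The other gene, Adm, had 1 count against 0. The intervals of all 22 lay above 1, as did those of 26.3% of all genes that reached 1 CPM, and their median log2 ratio was 1.22. The stanniocalcins lay at either end of this list. It was chosen with earlier results known, and Nos2 and the other genes ranked above Stc1 are not in it. The place of each stanniocalcin therefore holds for the listed genes only. The log2 ratio of 3.98 for Stc1 was above that of every listed member, the nearest being Car9, a carbonic anhydrase, at 3.91. Car9 had 36 counts against 2, so its interval of 4.78 to 159 contained the Stc1 ratio. The log2 ratio of 0.11 for Stc2 was below that of every member that reached 1 CPM, the nearest being the glycolytic enzyme Pgk1 at 0.23. The Pgk1 interval of 1.12 to 1.22 lay inside that of Stc2. Ddit4, a brake on mTORC1, was at the fold limit with 780 counts against 399 and a ratio of 2.02 (1.79 to 2.28), or 1.999 and not called with DESeq2 size factors.

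ATF4 and PERK targets, the stress genes with which Stc2 is usually grouped, had a share of calls near that of the whole table. All 19 reached 1 CPM, and 1 was called higher and 0 lower, beside 3.06% and 0.929% of all genes. The median log2 ratio was 0.14, close to the Stc2 value of 0.11, but the members ran from -0.23 to 1.03. Intervals lay above 1 for 12 and below 1 for 3, where all genes gave 26.3% and 28.6%. Those above 1 included Atf3 at 1.71 (1.19 to 2.51), Ppp1r15a at 1.67 (1.52 to 1.83) and Chac1 at 1.49 (1.37 to 1.62). Those below 1 were Psat1 at 0.894 (0.868 to 0.921), Phgdh at 0.952 (0.926 to 0.979) and Mthfd2. Most of the 19 genes have far higher counts than Stc2, which narrows their intervals on both sides of 1. Why more intervals lay above 1 than below was not tested. The gene called higher was the lipoprotein receptor Vldlr, also known as hypoxia-induced, with a ratio of 2.04 (1.94 to 2.15). Atf4 itself had 11955 counts against 12154, and its interval of 0.990 to 1.04 included 1. Ddit3, the stress factor CHOP, had 817 counts against 572 and a ratio of 1.47 (1.32 to 1.64), so its interval began where the Stc2 interval ended. The lowest member was Mthfd2, a mitochondrial folate enzyme, at 0.855 (0.817 to 0.895).

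**Figure D3:**
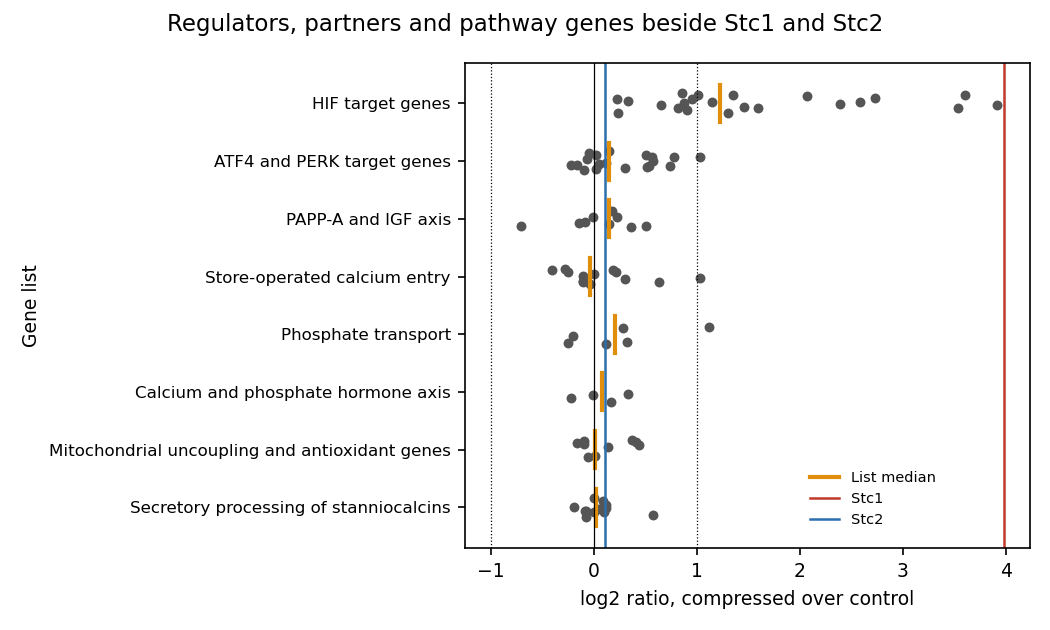
Log2 ratio of compressed over control (horizontal axis) for each list member that reached 1 CPM in either library (grey points, vertical scatter for display only), by gene list. Orange bars are list medians, vertical lines mark Stc1 (red, 3.98) and Stc2 (blue, 0.11), and dotted lines mark the fold limits of 2 and 0.5. Stc1 lies above every plotted gene, and Stc2 lies below every plotted HIF target.

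The protein targets of the stanniocalcins were measured to different depths. Pappa, which encodes pappalysin 1, had 5 counts against 4, too few to show a difference. Its paralog Pappa2 had 159 counts against 174, with a ratio of 0.943 and an interval of 0.756 to 1.18. Of the binding proteins they cleave, Igfbp4 had 87 counts against 70, with a ratio of 1.28 (0.925 to 1.78), and Igfbp5 had 1 count against 0. Of the 14 genes of the pappalysin and insulin-like growth factor axis, 9 reached 1 CPM and 0 were called, beside 3.06% and 0.929% of all genes, with a median log2 ratio of 0.14. The highest was the growth factor Igf2 at 1.42 (1.10 to 1.84), and the lowest was Irs1, an adaptor of the receptor, at 0.610 (0.580 to 0.641). The intervals of Pappa, Pappa2 and Igfbp4 all included 1.

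Genes of store-operated calcium entry, the process that Stc2 restrains, had 1 of 13 members called higher and 0 lower, near the 3.06% and 0.929% of all genes, and a median log2 ratio of -0.04. The calcium sensor Stim1 had 520 counts against 578 and the channel Orai1 had 344 against 383, and both intervals included 1. The member called higher was the channel Trpc1, with 554 counts against 280, a ratio of 2.04 (1.77 to 2.37). The lowest was Atp2a2, the pump that refills the stores, at 0.754 (0.737 to 0.772).

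For phosphate transport, linked to Stc1 in bone cells, 6 of 10 genes reached 1 CPM, and 1 was called higher and 0 lower, a count too small to set apart from the 3.06% and 0.929% of all genes. Both type III sodium-phosphate cotransporters were slightly below 1. Slc20a1 had 2828 counts against 3367 and a ratio of 0.867 (0.824 to 0.911). Slc20a2, the lowest member, had 1243 against 1525 and a ratio of 0.841 (0.780 to 0.907). The 3 type II cotransporters (Slc34a1, Slc34a2 and Slc34a3) and Enpp1 were listed at 0 in both libraries. Phospho1, a phosphatase that starts mineral formation, was the highest member at 2.16 (1.89 to 2.49). The list median log2 ratio was 0.20.

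Receptors and enzymes of the calcium and phosphate hormones were mostly near the detection limit, with 4 of 15 at 1 CPM, 0 called (3.06% and 0.929% over all genes), and intervals that all included 1. Pth1r, the parathyroid hormone receptor, was highest with 50 counts against 41, and Cyp27b1, which activates vitamin D, was lowest with 39 against 47. Among uncoupling and antioxidant genes, 9 of 12 reached 1 CPM, 0 were called (3.06% and 0.929% over all genes) and the median log2 ratio was 0.01. Ucp2, the uncoupling protein linked to Stc1, was listed at 0 in both libraries. Sirt3, a mitochondrial deacetylase, was highest at 1.35 (1.05 to 1.74), and Gpx1, a glutathione peroxidase, was lowest at 0.893 (0.861 to 0.926). A listed 0 is not read as absence here, since Eif4e, Rps2 and Ndufs7, genes that nearly every cell uses, were also listed at 0 in both libraries.

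For the machinery that folds and modifies secreted proteins such as the stanniocalcins, all 12 listed genes reached 1 CPM, and the median log2 ratio was 0.02. Of these, 0 were called, a count that cannot be set apart from the 3.06% and 0.929% of all genes. Fam20c, the secretory-pathway kinase, was the lowest at 0.872 (0.796 to 0.956), with 869 counts against 1028. Its relative Fam20a, a pseudokinase, was the highest at 1.49 (1.21 to 1.84).

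The libraries were similar in depth, at 24296292 counts under compression and 25049919 in the control. Of 12 cementoblast and osteoblast markers, 8 reached 1 CPM, and the 12 summed to 15200.1 CPM under compression and 14699 CPM in the control. Most of both sums came from Col1a1, at 7758 CPM under compression and 7535 CPM in the control, and Col1a2, at 4916 and 4789 CPM. Of the 12 markers, Ibsp, a defining cementoblast marker, and Mepe were listed at 0 in both libraries. Bglap and Dmp1 stayed below 1 CPM in both. Marker sums of other cell types were low and similar in both libraries, apart from fibroblast markers. Endothelial markers summed to 4.32 CPM under compression and 4.15 CPM in the control, epithelial markers to 1.94 and 1.84 CPM, and macrophage and osteoclast markers to 20.1 and 21.0 CPM. In that order 2, 1 and 4 members reached 1 CPM and 0 were called. These are too few to set apart from the 3.06% and 0.929% of all genes. Kdr and Tek, Epcam, Krt5 and Krt18, and Ptprc and Emr1 were listed at 0 in both libraries, which is not read as absence. Other members of the same lists had counts. Under compression and in the control these were 84 and 70 for Vwf, 21 and 32 for Pecam1, and 27 and 23 for Krt8. Cd14 had 242 and 276 counts, and Cd68 had 150 and 143. Of 8 periodontal ligament and fibroblast markers, 6 reached 1 CPM and 0 were called, again too few to set apart from those shares. The 8 summed to 2026 and 1689 CPM. Most of both sums was Fn1, at 1795 and 1451 CPM.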

How the data were processed

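RNA sequencing reads of 1 compressed and 1 control OCCM-30 library were analysed from the deposited table, whose values are whole-number read counts per gene with no normalization. Per the submitters' processing notes, HISAT2 and GRCm38 were used. How reads were counted (tool, annotation version, strand, multiply aligned reads) is stated neither in the labels nor in the table. All 44792 rows entered the TMM scaling of edgeR 4.0.16 (R 4.3.3). Ratios used a prior count of 0.5 and exact 95% conditional binomial (Clopper-Pearson) intervals from SciPy 1.17.1. The quasi-likelihood test of edgeR needs residual degrees of freedom, which 1 library per group does not give, so no p-value was computed. The calling script was checked on counts simulated with counting error only, so the check does not cover spread between cultures.

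The genes Stc1 and Stc2, the 8 gene lists and the 5 marker lists were chosen with earlier results of these data known. Beyond Stc1 and Stc2, the genes named were the highest and lowest member of each list, a set of direct partners, the 5 most alike genes and the 2 nearest coding genes on either side, of which 1 is not reported here. All 156 list and marker genes had a row, 2 of them through an older symbol (Saraf as Tmem66, and Emr1). Alternatives were total counts, upper-quartile factors, size factors of DESeq2 1.42.0, a loess fit, a prior count of 5, no CPM minimum, a CPM minimum of 5, and widened intervals.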

Additional observations from a re-analysis of the deposited data

How the results depend on the processing

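The Stc1 ratio ran from 14.7 to 15.9 and the Stc2 ratio from 1.06 to 1.09 over the other scalings, the loess fit and a prior count of 5, and wherever an interval was computed, widened ones included, that of Stc1 lay above 1 and that of Stc2 included 1. Adding 5 to each count gave 13.7 for the quotient of the Stc1 and Stc2 ratios. List counts were recomputed under the other scalings, the loess fit and the changed CPM minimums. They were not recomputed with a prior count of 5 or widened intervals. The HIF targets called higher ran from 12 to 13, and the other counts of list members called were the same throughout. The number of genes called depended on the CPM minimum. With no minimum, 774 genes were called higher and 369 lower, and with a minimum of 5 CPM, 154 and 12. Fewer genes enter at the higher minimum. Both stanniocalcins reached 5 CPM in at least 1 library. No paired analysis was possible because there is 1 library per group, and for the same reason no replicate could be left out. Counts as low as those of Pappa and Igfbp5 could not show a difference at this depth.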
